A study of Mus musculus with 4 samples.

Results

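The genes described here encode antiviral restriction factors and interferon-induced members of the PARP module: Bst2, Mx1, Mx2, Rsad2, Rtp4, Samhd1, Xaf1, Parp9, Dtx3l and Parp14. These 10 names were looked up in a table of 22369 genes, and 9 of them matched a row. Mx2 was not analysed here. The members were chosen by name with the difference between the study's groups already known, so their differences are given as a description with standard errors and are not read as tests. Bulk RNA was sequenced from OG2MEF cells, mouse embryonic fibroblasts that carry a green fluorescent reporter driven by Oct4 regulatory sequence, on day 9 of reprogramming. The comparison set 2 libraries labelled as wild-type SOX17 against 2 labelled as SOX17-V118M, a missense form of this endodermal transcription factor, and asked how the mutation changes expression during reprogramming. Per the growth protocol in the labels, cells were transduced with pMX retroviruses packaged in PlatE cells, carrying Sox2 and Klf4 with OCT4, SOX17, SOX17-V118M or GFP, and were afterwards kept in a medium for mouse embryonic stem cells that contained leukaemia inhibitory factor (LIF) and vitamin C. The labels do not say which of these mixes each library received beyond the SOX17 form, and they give neither the strain of the embryos nor whether replicates were separate cultures.

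Interferons are secreted proteins that signal through JAK kinases to transcription factors that bind the interferon-stimulated response element in the promoters of its target genes. Many of the targets encode restriction factors, proteins that block a step of viral replication inside the infected cell or at its surface. PARP9, PARP14 and the ubiquitin ligase DTX3L belong to the same induced program and act through ADP-ribosylation and ubiquitylation. Fibroblasts can mount this response.

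Promoter sequences were available from RefSeq (GRCm38.p6) for 5 of the 10 members: Bst2, Rsad2, Samhd1, Dtx3l and Xaf1. Windows of 300 bases, from 250 before to 50 after the annotated start, were searched on both strands for the core of the interferon-stimulated response element, spelled GAAANNGAAA. It occurred in 2 of the 5 windows, against 3.44% of all 32851 windows of that length. Bst2 had a pair of overlapping matches at positions -130 to -121 and -124 to -115 from the start, and Rsad2 had 1 match at positions -120 to -111 on the opposite strand. Both promoters are printed because they hold the core, and that of Xaf1 is printed beside them as a member with a larger difference and no match in the window. Only the exact spelling was searched, so a site that differs by a letter was not counted. Each stretch runs 5′ to 3′ on the strand of the gene, is limited to bases outside annotated exons, and has the matched core in capitals.
Bst2 (chr8:71537473-71537722, minus strand): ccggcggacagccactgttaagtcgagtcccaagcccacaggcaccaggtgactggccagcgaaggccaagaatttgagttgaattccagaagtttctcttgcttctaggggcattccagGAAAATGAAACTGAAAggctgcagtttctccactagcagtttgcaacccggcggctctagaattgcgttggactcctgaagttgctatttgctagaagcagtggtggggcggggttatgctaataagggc
Rsad2 (chr12:26456453-26456702, minus strand): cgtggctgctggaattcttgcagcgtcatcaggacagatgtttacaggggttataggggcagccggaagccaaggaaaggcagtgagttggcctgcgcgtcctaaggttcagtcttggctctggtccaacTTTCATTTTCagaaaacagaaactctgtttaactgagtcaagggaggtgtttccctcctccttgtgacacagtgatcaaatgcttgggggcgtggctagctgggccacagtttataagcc
Xaf1 (chr11:72301379-72301628, plus strand): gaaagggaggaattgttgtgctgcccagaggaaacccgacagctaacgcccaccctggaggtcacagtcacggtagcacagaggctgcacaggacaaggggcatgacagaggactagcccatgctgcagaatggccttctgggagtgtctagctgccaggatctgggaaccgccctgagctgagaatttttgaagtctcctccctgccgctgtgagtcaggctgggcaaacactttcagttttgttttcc
A match describes letters only and does not show that a factor bound there.

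The deposited values are quantile-normalized whole numbers, with a median of 76 in every library, so the sequencing depth is unknown and no counting intervals can be given. V118M replicate 2 stood apart, with Pearson's r of 0.954 to 0.964 to the other libraries, against 0.986 to 0.990 among those libraries. These correlations are over the 12635 genes with a known transcript length and a mean log2(value + 1) of at least 5. Fibroblast markers were abundant, summing to 172279 to 174336 in wild type and 143920 to 174752 in V118M. The lower V118M sum was that of replicate 2. In 3 of the 12 markers both V118M libraries were above both wild-type libraries, against 13.2% of all tested genes. Both were below in 0, against 14.8%. The median log2 difference of these markers was 0.007. The most abundant of the fibroblast markers, Col3a1 and Col1a2, encode chains of fibrillar collagens. Col3a1 was at 61186 and 61186 against 61186 and 29496, and Col1a2 at 29492 in every library. Under quantile normalization such repeated values mark a shared rank, so they do not show equal levels or the size of a change. All 12 fibroblast markers were above 0 in every library. This also held for all 7 epithelial markers, so it does not single out fibroblasts. The summed level of 13 leukocyte markers was 870 to 978 in wild type and 654 to 696 in V118M. Of these markers, 3 were higher and 9 lower in V118M by mean log2 value, of 13 tested, with 1 equal. The most abundant were Itgam, at 251 and 428 against 366 and 330, and Cd68, at 136 and 206 against 142 and 110. Ptprc, the defining pan-leukocyte gene and named with its values known, was at 165 and 58 against 30 and 0. Of 9 markers of plasmacytoid dendritic cells and lymphocytes, a list from which Bst2 was left out as a member, 5 had values. These summed to 3180 to 3378 against 3387 to 4552, and Tcf4 alone made up most of each sum. The most abundant were Tcf4, at 2868 and 3026 against 3044 and 3873, and Ly6d, at 194 and 227 against 238 and 449. Named with their values known, Il3ra was at 112 and 119 against 102 and 230, Flt3 at 6 or less and Cd79a at 1 or less. Endothelial markers summed to 1232 to 1305 against 1127 to 1157, with 2 higher and 4 lower of 6 tested. The most abundant were Tek, at 1103 and 1172 against 1054 and 933, and Cldn5, at 58 and 78 against 57 and 151. Epithelial markers summed to 16430 to 16806 against 17666 to 19396, but 2 were higher and 5 lower, with a median log2 difference of -0.10. Krt8 was at 6702 and 6490 against 6332 and 5972, and Krt14 at 4752 and 4358 against 5802 and 8053. Krt5, named with its values known, was at 246 and 199 against 664 and 731, a log2 difference of 1.65 (standard error 0.18). Krt5 and Krt14 were the 2 higher epithelial markers. Both V118M libraries were above both wild-type libraries in 2 epithelial markers and below them in 3, against 13.2% and 14.8% of tested genes. Pluripotency markers summed to 111 to 170 against 223 to 250, with 5 higher and 1 lower of 6 tested. Tdgf1 was at 83 and 126 against 188 and 149, and Utf1 at 10 and 17 against 33 and 38. In bulk RNA a change in the number of cells of a type and a change in RNA per cell cannot be told apart, and the part of these markers in the differences below was not tested.

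All 9 members were higher on average in V118M, as were 50.0% of the 19547 genes tested. In 8 of the 9, both V118M libraries were above both wild-type libraries, which held for 13.2% of all tested genes. The median difference of the members was 0.98 on the log2(value + 1) scale, against 0 for all tested genes, and it reached 1 or more in 3 members against 3.77% of genes. Relative to the wild-type mean of each gene, the median of the members was 0.81 in V118M replicate 1 and 1.11 in V118M replicate 2. Over all genes, limma called 0 at an adjusted p of 0.05 (0% of those tested, with a lowest adjusted p of 0.205), and 784 had an unadjusted p under 0.05 (4.01%). Of these, 451 were higher in V118M (2.31% of tested genes). None of the 9 members passed the adjusted threshold and 6 had an unadjusted p under 0.05. Because the choice of members used this same contrast, nothing is read from these counts.

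**Figure D1:**
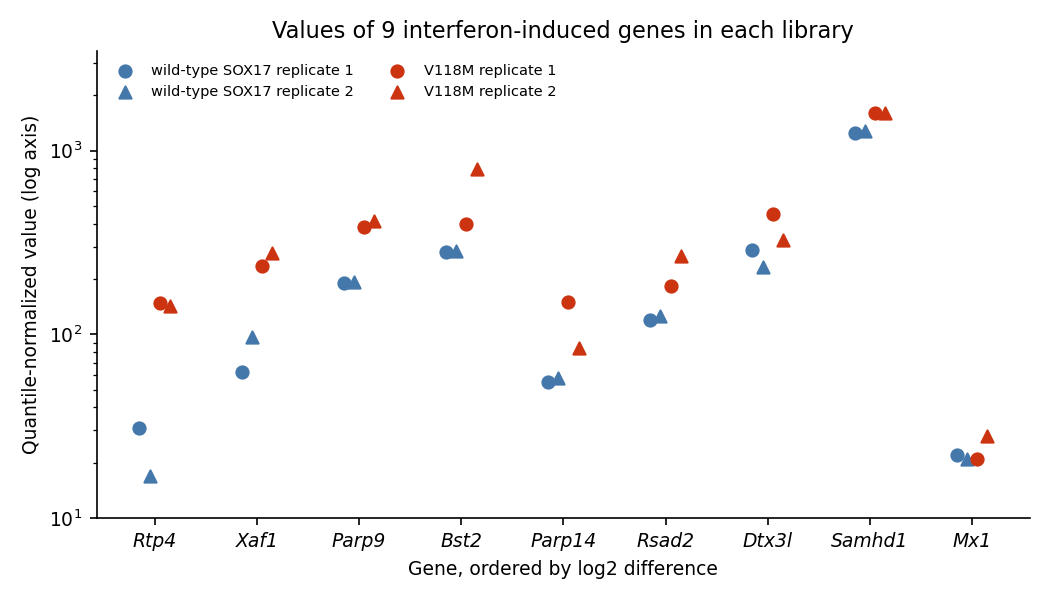
Quantile-normalized value (log axis) of each of the 9 genes in the 4 libraries, with wild-type SOX17 in blue, V118M in red, circles for replicate 1 and triangles for replicate 2. Both red points lie above both blue points in every gene except Mx1, where V118M replicate 1 equals wild-type replicate 2 at 21.

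Rtp4 had the widest gap between the groups. It encodes a receptor transporter protein that is induced by interferon and restricts RNA viruses. The wild-type libraries stood at 31 and 17 and the V118M libraries at 148 and 142. The wild-type mean was 24 ± 9.90 and the V118M mean 145 ± 4.24 (SD, n = 2 each), a 6.04-fold ratio of means and a log2 difference of 2.60 with a standard error of 0.35. The wild-type libraries differed from each other by more than the V118M libraries did, and the lowest V118M value was 4.58 times the highest wild-type value. Rtp4 was 61st of the 19547 tested genes by log2 difference. In GENCODE M21 the gene runs on chromosome 16 from 23520291 to 23614222 on the plus strand, and the listed transcript begins within an exon of the gene Gm45338 on the same strand, with 296 exonic bases in common. Reads from those bases could be counted for either gene. Named with their values known, the receptor transporter genes with a row besides it were low: Rtp3 was at 0 in all 4 libraries and Rtp2 at 2 or less.

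Xaf1, which encodes a proapoptotic zinc-finger protein that binds the inhibitor of apoptosis XIAP, had the second widest gap. It lies on chromosome 11 from 72301629 to 72313733. Wild-type libraries stood at 62 and 96 and V118M libraries at 236 and 277, without overlap. The ratio of means was 3.25 and the log2 difference 1.72 with a standard error of 0.27. The gene for its partner, Xiap, picked with its values known, was at 880 and 838 against 888 and 675, so its groups overlapped. Among the 6 listed genes of the inhibitor of apoptosis family and their antagonist Diablo, 3 were higher and 3 lower, with a median log2 difference of -0.03.

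Bst2 encodes tetherin, a membrane protein that holds budding enveloped virions on the cell surface. The gene is on chromosome 8 from 71534255 to 71537456, on the minus strand. Values of 282 and 285 in wild type stood against 401 and 794 in V118M. The wild-type libraries were nearly equal, whereas the V118M libraries were far apart, with means of 283.5 ± 2.12 and 597.5 ± 278 (SD, n = 2 each). The log2 difference of 0.99 (standard error 0.34) therefore depended on the library: leaving out V118M replicate 2 gave 0.50 and leaving out V118M replicate 1 gave 1.48.

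Rsad2, which encodes viperin, a radical SAM enzyme that makes a chain-terminating nucleotide, showed the same order of libraries. It lies on chromosome 12 from 26442746 to 26456452. Wild-type values of 120 and 126 stood against V118M values of 182 and 268, and the log2 difference was 0.84 with a standard error of 0.25. Cmpk2, the nucleotide kinase gene 12.8 kb away on the other strand, was at 61 and 55 against 87 and 98, also without overlap, with a log2 difference of 0.66 (standard error 0.23). Rnf144a, the neighbour on the other side of Rsad2, was at 87 and 75 against 99 and 89.

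Samhd1 encodes a triphosphohydrolase that depletes the deoxynucleotides needed for reverse transcription. It lies on chromosome 2 from 157097533 to 157135265. The wild-type libraries were at 1250 and 1282 and the V118M libraries at 1598 and 1612. This was the smallest difference among the members without overlap, 0.34 (standard error 0.14), and the libraries within each group differed little, with means of 1266 ± 22.6 and 1605 ± 9.90 (SD, n = 2 each). Other genes of deoxynucleotide metabolism were mixed: of 8 listed, 6 were higher and 2 lower, 0 passed the adjusted threshold and 1 had an unadjusted p under 0.05, with a median log2 difference of 0.24. Thymidine kinase Tk1 was at 310 and 242 against 362 and 457, the ribonucleotide reductase large subunit Rrm1 at 1547 and 1450 against 1812 and 1849, and the p53-induced small subunit Rrm2b at 372 and 412 against 346 and 268.

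Mx1 was the exception. It encodes a dynamin-like GTPase that blocks influenza virus in the nucleus, and many laboratory mouse strains carry a defective allele. On chromosome 16 from 97447035 to 97462907, the transcript listed for it is annotated as a target of nonsense-mediated decay. It was low in all libraries, at 22 and 21 for wild type against 21 and 28 for V118M. The groups overlapped, and the log2 difference of 0.17 was smaller than its standard error of 0.36. Without V118M replicate 2 it was -0.032.

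The PARP module showed differences of intermediate size. Parp9 encodes a PARP family protein that works as a heterodimer with the E3 ubiquitin ligase DTX3L. Wild-type values were 190 and 192 and V118M values 382 and 412, with means of 191 ± 1.41 and 397 ± 21.2 (SD, n = 2 each) and a log2 difference of 1.05 (standard error 0.16). Its partner Dtx3l was at 288 and 231 against 453 and 328, a log2 difference of 0.58 with a standard error of 0.23. The V118M libraries of Dtx3l were further apart than those of Parp9, but both were above the wild-type libraries. Parp14, a large macrodomain-containing mono-ADP-ribosyltransferase, was at 55 and 58 against 150 and 84, a log2 difference of 0.98 with a standard error of 0.34. Leaving out V118M replicate 1 brought Parp14 to 0.56 and Dtx3l to 0.35, and leaving out V118M replicate 2 brought them to 1.39 and 0.81.

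These 3 genes are neighbours on chromosome 16. Parp14 spans 35832874 to 35871544 and Dtx3l 35926511 to 35939151, both on the minus strand, and Parp9 spans 35938470 to 35972605 on the plus strand. Dtx3l and Parp9 are arranged head to head, and the exons of their listed transcripts share 367 bases, from 35938694 to 35939060, on opposite strands. Strand use in read counting is not stated, so reads from those bases cannot be told apart. The listed Parp14 transcript has 110 exonic bases, from 35866179 to 35866288, in common with the gene Gm49730 on the same strand. Reads from that stretch could be counted for either gene. For comparison, the flanking gene Hspbap1, which lies 4.4 kb from Parp14, was at 326 and 331 against 310 and 352, with overlap. The importin gene Kpna1, 6.1 kb beyond Parp9, had wild-type values of 2012 and 2060 and V118M values of 1848 and 1588, so that both V118M libraries were the lower ones. In all, 5 of the 9 members with values were on chromosome 16, with Rtp4 and Mx1 elsewhere on it.

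**Figure D2:**
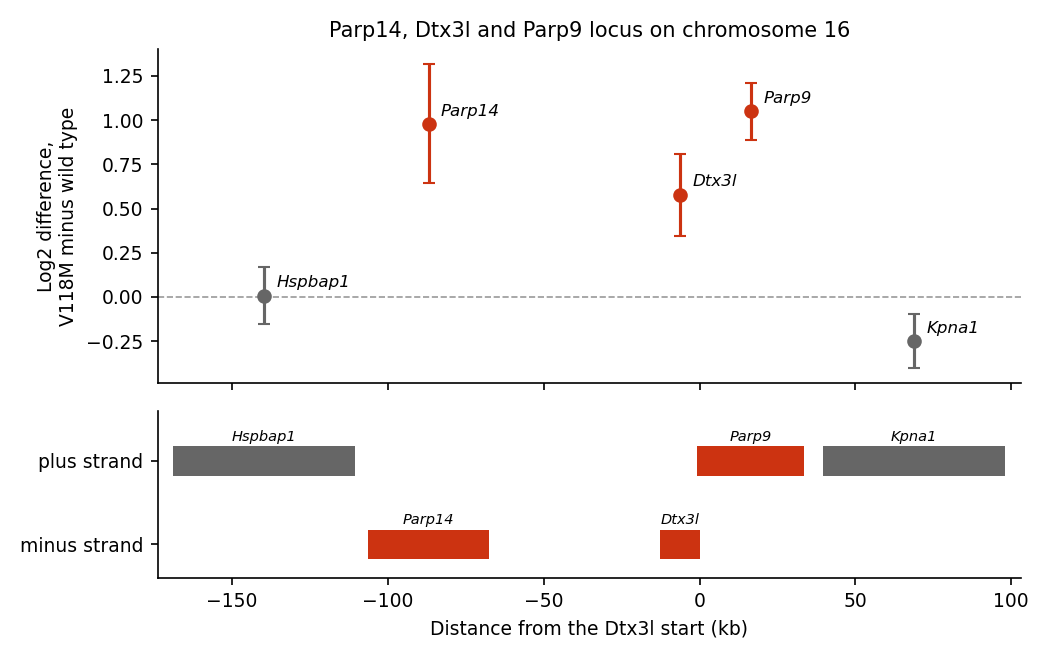
Upper part, log2 difference of V118M minus wild type with 1 standard error for the Parp14, Dtx3l and Parp9 genes (red) and the nearest flanking protein-coding genes with values (grey); lower part, gene extents by strand as the distance in kb from the Dtx3l start. The 3 red genes lie at 0.98, 0.58 and 1.05, while Hspbap1 lies at 0.01 and Kpna1 at -0.25.

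Over all members, 14 nearest protein-coding neighbours that are not members themselves were found, and 13 could be tested. Of these 8 were higher and 5 lower, with a median log2 difference of 0.08. Both V118M libraries were above both wild-type libraries in 5, against 13.2% of all tested genes. Among those 5 was Cmpk2, which is also counted among the interferon effectors below. The highest was Plvap, an endothelial diaphragm gene 22.5 kb from Bst2, at 34 and 44 against 60 and 86 (log2 difference 0.88). Mvb12a, on the other side of Bst2, was at 547 and 580 against 492 and 718. Fbxo39, only 0.7 kb from Xaf1, was at 2 or less in every library. Slc13a5, on the other side of Xaf1, had the lowest log2 difference, -1, at 3 and 1 against 0 and 1. Masp1 overlaps the extent of Rtp4 on the other strand. It was at 180 and 132 against 176 and 56 (log2 difference -0.63). Sst, on the other side of Rtp4, was at 0, 0, 0 and 1. Around Mx1, Bace2 was at 25 and 30 against 36 and 36 and Fam3b at 112 and 133 against 103 and 105. Around Samhd1, Rbl1 was at 178 and 172 against 237 and 182 and Soga1 at 590 and 423 against 542 and 186.

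The V118M libraries differed from each other more than the wild-type libraries did. The median absolute difference between replicates over the 9 members was 0.07 log2 units in wild type and 0.40 in V118M. Rtp4 and Xaf1 were the wild-type pairs furthest apart, at -0.83 and 0.62 for replicate 2 minus replicate 1. In V118M, 6 members were higher in replicate 2 and 3 were lower. Bst2 had the highest value, 0.98, and Parp14 the lowest, -0.83. The difference between the V118M libraries fell along transcript length across all genes, with Spearman's rho of -0.47 over 12635 genes that share these libraries, and rho was -0.63 over the 9 members. The shortest listed transcripts were those of Xaf1 (0.672 kb) and Bst2 (0.792 kb), and the longest those of Dtx3l (5.31 kb) and Parp14 (7.42 kb). With a smooth trend on length and GC content removed from each library, the V118M libraries came closer in 4 members and moved further apart in 5. The difference between them went from -0.83 to -0.38 for Parp14, from -0.46 to -0.16 for Dtx3l, from 0.98 to 0.75 for Bst2 and from 0.23 to 0.01 for Xaf1. It widened from 0.56 to 0.70 for Rsad2, from 0.40 to 0.50 for Mx1, from 0.11 to 0.27 for Parp9, from 0.01 to 0.24 for Samhd1 and from -0.06 to -0.14 for Rtp4. The rank correlation with length over the 9 members was then -0.47. The differences between groups on those values were 1.13 for Parp14 (standard error 0.23), 0.68 for Dtx3l (standard error 0.16) and 0.91 for Bst2 (standard error 0.27). In these values too, all 9 members were higher in V118M, and both V118M libraries were above both wild-type libraries in 8, against 18.8% of the 19498 genes in that fit.

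**Figure D3:**
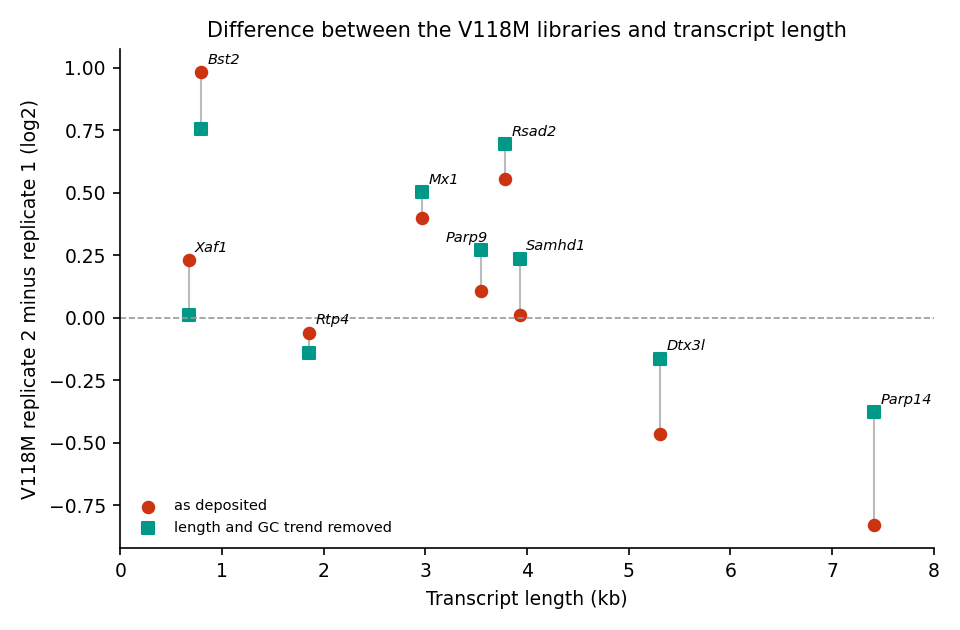
Log2 difference of V118M replicate 2 minus replicate 1 against the length of the listed transcript in kb, one pair of points per gene, as deposited (red circles) and with the length and GC trend removed (green squares). Bst2 at 0.792 kb stands at 0.98 and Parp14 at 7.42 kb at -0.83 as deposited, and the trend removal moves both towards 0, while it moves 5 of the 9 genes further from 0.

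**Figure D4:**
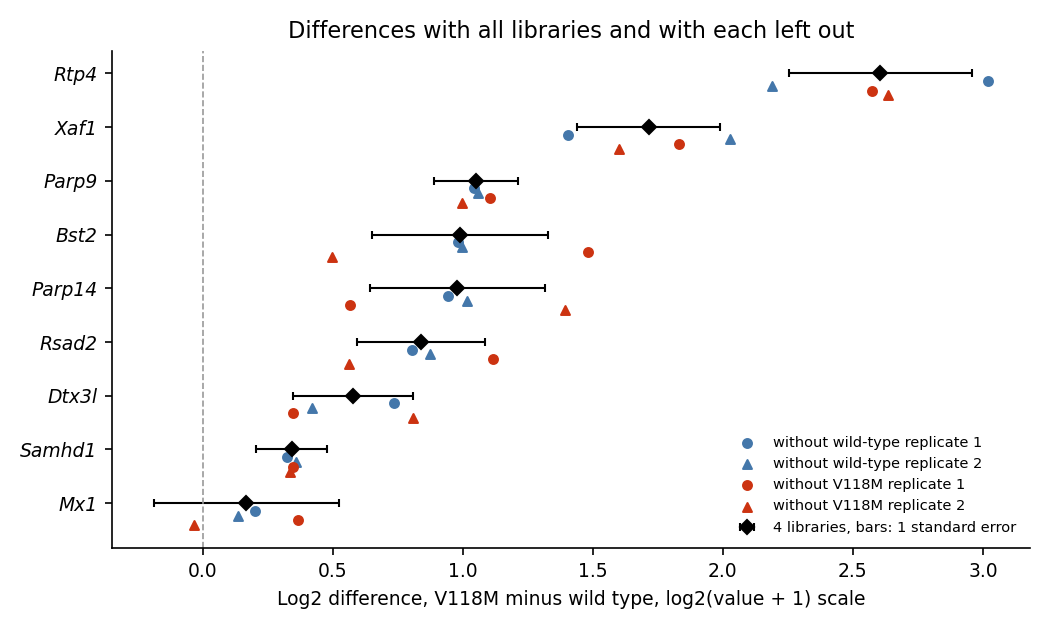
Log2 difference of V118M minus wild type for each gene with all 4 libraries (black diamonds, bars of 1 standard error) and with each library left out (coloured symbols). Rtp4 stays between 2.19 and 3.02 and Parp9 between 1.00 and 1.11, while Bst2 ranges from 0.50 to 1.48 and Mx1 from -0.032 to 0.37.

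Other genes of the members' families were set beside them as a description. Of 14 other PARP genes, 4 were higher and 10 lower, the median was -0.06, and 0 passed at the adjusted or the unadjusted threshold. The 3 with the smallest p were Parp10, another interferon-induced member, at 55 and 70 against 84 and 130, Parp2 of DNA repair at 248 and 220 against 265 and 345, and Parp16 of the endoplasmic reticulum at 62 and 76 against 60 and 32. Chosen after their values were seen, Zc3hav1, which encodes the zinc-finger antiviral protein, was at 1805 and 1836 against 2266 and 1598, and Parp12 was at 2246 and 2184 against 2387 and 2028. Both genes are also known as interferon-induced, and the groups overlapped in each. The other deltex ligase genes numbered 4, with 2 higher and 2 lower.

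Of 24 other restriction factor genes, 21 could be tested, and 16 were higher and 5 lower, with a median of 0.31. None passed the adjusted threshold, and 5 were higher with an unadjusted p under 0.05. Both V118M libraries were above both wild-type libraries in 13 and below them in 2, where 14.8% of all genes were below. The nucleic acid-binding PYHIN genes Ifi203 and Ifi204 were at 865 and 906 against 1248 and 1312 and at 330 and 342 against 460 and 516. Trim12c, a mouse relative of TRIM5, was at 246 and 242 against 327 and 440. Apobec3, the cytidine deaminase gene, was chosen after its values were seen and stood at 305 and 360 against 432 and 369, a log2 difference of 0.27 with a standard error of 0.18.

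Further genes of the interferon pathway were listed as effectors and as signalling components. Among 32 effectors, 30 were higher and 2 lower, 26 had both V118M libraries above both wild-type libraries, and the median was 1.09. None passed the adjusted threshold, and 22 were higher with an unadjusted p under 0.05. Oas2 and Oasl2, of the oligoadenylate synthetase family, and Ifi44 had the smallest p, with log2 differences of 2.99, 2.61 and 1.63. Among 24 tested signalling and sensor genes, 14 were higher and 10 lower, with a median of 0.31, 0 past the adjusted threshold and 8 higher with an unadjusted p under 0.05. Irf7 and Irf9, transcription factors of the response, differed by 2.42 and 1.12, and the RNA sensor regulator Dhx58, at 24 and 33 against 84 and 100, by 1.67. Named after their values were seen, the receptor genes Ifnar1 and Ifnar2 differed by -0.23 and -0.03 and the kinase gene Tyk2 by -0.06, and their groups overlapped only for Ifnar2 and Tyk2. The interferon beta gene Ifnb1, also named with its values known, was at 1, 1, 1 and 2.

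**Figure D5:**
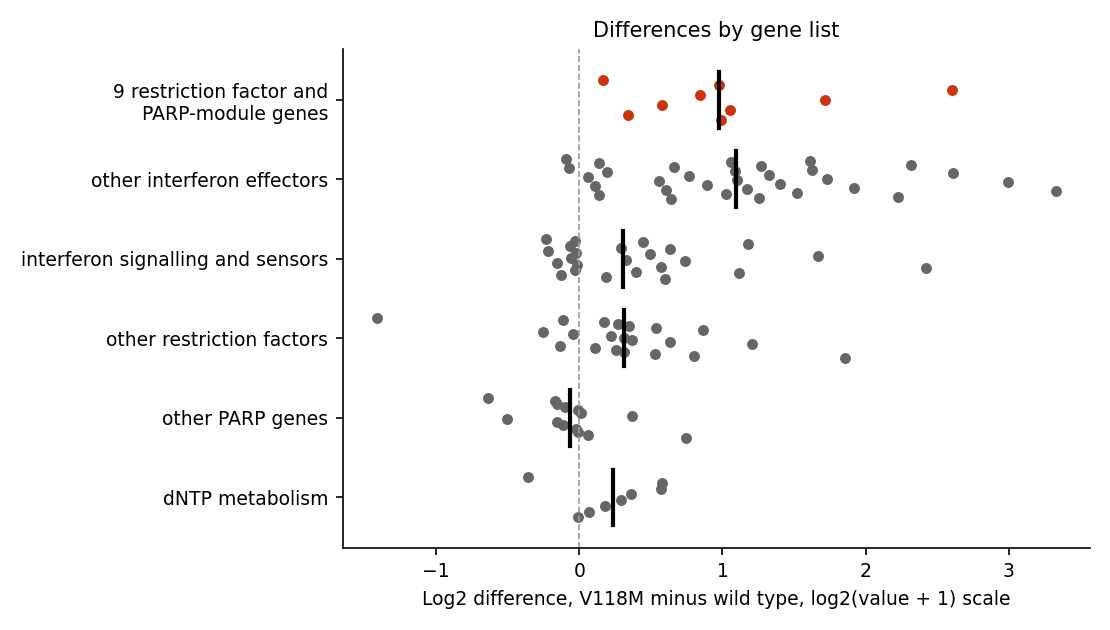
Log2 difference of V118M minus wild type for each tested gene (points) of 6 gene lists, with the list median as a black bar and the vertical position of points within a list without meaning. The 9 restriction factor and PARP-module genes have a median of 0.98, other interferon effectors 1.09, other restriction factors 0.31 and other PARP genes -0.06.

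Genes with the profile most like the median of the members were sought by the Euclidean distance between log2 values in the 4 libraries, centred on the wild-type mean. The 5 nearest were Krt17, Acpp, Serpina3g, Aldh1a2 and Plekho1, at distances of 0.02 to 0.11. Krt17, a keratin of stressed epithelium, was at 1364 and 1399 against 2427 and 2962. Serpina3g, a serine protease inhibitor gene, was at 57 and 55 against 99 and 114, and the retinoic acid synthesis gene Aldh1a2 at 38 and 36 against 66 and 76. With 4 libraries many genes can come near to any profile, so this likeness is a description only.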

How the data were processed

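RNA sequencing values for 4 day 9 libraries were taken from 1 table that the authors deposited. Per the submitters' processing notes, mm10, FastQC, RSEM, Bowtie2 and DESeq2 were named, without version or role. The deposited values are scores: whole numbers whose sorted columns were equal at 76.7% of ranks and whose totals lay between 12855482 and 12859613, so they are quantile-normalized and not counts. Depth per library is unknown. Genes were matched to GENCODE M21 (GRCm38), where 22304 of 22369 transcripts were found. Values were transformed as log2(value + 1). The filter required a value of 1 or more in 2 or more libraries, which left 19547 genes, all 9 members among them. They were fitted with limma 3.58.1 in R 4.3.3 (trend and robust options, group as the term, two-sided, Benjamini-Hochberg over all genes). The fit was also run on simulated independent libraries. These had no outlying library and no length trend, so that run does not show how the fit behaves on these data. No label ties replicates to separate cultures, so p-values reflect a spread that may be technical. The members and lists were chosen with earlier results of these data known. The genes named were all members, the 3 genes of smallest p in each pathway list (2 most abundant for markers), the nearest coding neighbours and the 5 nearest profiles. Any other gene is marked in the text as picked with its values known. Alternatives were other pseudocounts and filters, the replicate block, length and GC trend removal with mgcv 1.9.3, array weights and each library left out.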

Additional observations from a re-analysis of the deposited data

How the results depend on the processing

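Of the 12 alternatives, 4 (both filters, the replicate block and array weights) leave the member differences identical by construction, and leaving out a library moves each by a fixed part of a replicate gap, so neither measures stability. Pseudocounts of 0.1 and 5 gave Rtp4 2.65 and 2.41 and moved the other members less. With the length and GC trend removed, Samhd1 was 0.43 and Parp9 1.11, each moved by more than 1 replicate SD. Mx1 ranged from -0.032 to 0.37 when 1 library was left out, changing sign without V118M replicate 2. Leaving out 1 library gave a member median of 0.81 to 1.11 and a pathway list median of 0.59 to 0.74. It gave 221 to 5096 genes with an unadjusted p under 0.05, the highest without V118M replicate 1. In these fits a lone library is assumed to vary like the others, and 0 genes passed the adjusted threshold. Without a filter on low values 1441 genes had an unadjusted p under 0.05. The replicate block gave 1204 such genes and 3 past the adjusted threshold, 1 of them in the pathway list. The replicate block with the length and GC trend removed gave 1455 and 53, with 10 in the pathway list. Deviations of same-numbered libraries correlated at 0.30 over 12635 genes. The labels do not say that a number marks a shared culture or day, and whether the numbers pair the libraries could not be settled from 2 pairs. The cause of these shifts was not tested. The unknown depth limits what can be said of low genes such as Mx1.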
